A study of Mus musculus with 20 samples.

Results

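Genes of MHC class II antigen presentation were followed in the visceral fat of 20 mice, all F3 males. They are a set of 10 genes, listed by name with earlier results of these data known, out of 37,074 distinct gene names on the array. The set holds the class II chains H2-Aa, H2-Ab1 and H2-Eb1, the peptide exchange factor genes H2-DMa and H2-DMb1, the invariant chain gene Cd74, the transcriptional coactivator gene Ciita, and Cd80, Cd86 and Cd83 of antigen-presenting cells. All 10 had at least 1 probe well above background on enough arrays to be tested, among 25,618 gene names that did. Of their 23 probes 21 were tested, and the other two, 1 of H2-DMb1 and 1 of Ciita, were well above background on 0 of 20 arrays.

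All mice were C57bl/6J of the third generation of the control or the omega 3 lineage, whose growing diet was supplemented with an oil rich in eicosapentaenoic acid (EPA, the omega 3 lineage) or with high-oleic sunflower oil (the control, or oleic, lineage). The Ref group (6 mice) came from the control lineage and ate a low-fat diet, the HFoleic group (6 mice) came from the same lineage and ate an obesogenic diet high in fat and sucrose, and the HFepa group (8 mice) came from the omega 3 lineage and ate that obesogenic diet. HFoleic vs. Ref therefore compares diets within a lineage, and HFepa vs. HFoleic compares lineages on 1 diet. Ref and HFepa differ in both, no omega 3 lineage mice on the low-fat diet are in the design, and Ref and HFoleic had fewer mice because only RNA above an integrity limit was used. Each array held RNA of epididymal fat of 1 mouse, so replicates are separate animals, and RNA of whole tissue cannot tell more cells of a type from more RNA per cell.

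The share of spots well above background was 66.1% to 71.9% per array, and 0 spots were saturated. The 8 adipocyte markers, among them Adipoq and Plin1, had mean log2 intensities of 15.55 to 16.15 per mouse. None of 6 epididymis markers was tested, since each was well above background on at most 3 arrays. That does not show that epididymis was absent from those few arrays. Of 5 testis markers Prm1, Prm2 and Tnp1 were tested, while Smcp and Odf1 were well above background on 5 and 1 arrays. The mean of the 3 tested markers was 8.75 to 9.97 on the arrays of Ref 3, Ref 6, HFoleic 5 and HFepa 4. It was at most 6.77 on the other 16. The 4 arrays are said below to hold testis RNA, but the tissue that this RNA came from was not tested. The counts of members below are therefore also given without those 4 arrays.

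MHC class II molecules are pairs of an alpha and a beta chain that show peptides from engulfed material to CD4+ T cells. The invariant chain, made by Cd74, guides new pairs to endosomes and fills their groove, proteases trim it to a short fragment, and H2-DM exchanges that fragment for a peptide. Dendritic cells, B cells and macrophages carry class II molecules, adipose tissue macrophages are a known source of them in obesity, and adipocytes can make them too. Ciita switches the class II genes on through factors bound to conserved promoter elements, the X and Y boxes, and the T cell also needs the costimulators Cd80 and Cd86.

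Promoters are shown because class II genes are known for X and Y boxes before their start sites. Of the members, H2-Eb1 and H2-DMb1 matched the letter patterns used for both. H2-Aa matched that of the Y box alone, which does not show that an X box is absent. Uncalled neighbours, of which H2-Ob is printed, held such letters too. The RefSeq table used (build GRCm38.p6) held 300 bases around the start for 5 of the 10 members. The 130 bases before the start site are given 5′ to 3′ on the strand of the gene, with Y box letters (GATTGG) and X box-like letters (AACNNNTGA, N standing for any base) in capitals wherever they lie on either strand.
H2-Aa, chr17:34287824-34287953, minus strand: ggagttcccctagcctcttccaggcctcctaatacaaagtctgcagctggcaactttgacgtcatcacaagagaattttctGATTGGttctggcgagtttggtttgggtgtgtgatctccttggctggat
H2-Eb1, chr17:34305737-34305866, plus strand: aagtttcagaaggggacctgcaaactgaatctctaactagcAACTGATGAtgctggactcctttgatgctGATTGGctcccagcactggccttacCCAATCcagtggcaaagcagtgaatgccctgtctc
H2-DMb1, chr17:34153061-34153190, plus strand: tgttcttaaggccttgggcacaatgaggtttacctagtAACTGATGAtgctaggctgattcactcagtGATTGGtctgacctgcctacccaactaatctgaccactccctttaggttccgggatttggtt
H2-Ob, chr17:34238775-34238904, plus strand: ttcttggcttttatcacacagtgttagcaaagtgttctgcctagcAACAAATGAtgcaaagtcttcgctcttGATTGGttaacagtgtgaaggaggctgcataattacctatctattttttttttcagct
These letters were chosen after the promoters were seen, and the X and Y letters do not overlap in the lines above. Counted from the start site, GATTGG began at -49 in H2-Aa, -60 in H2-Eb1 and -62 in H2-DMb1, and H2-Eb1 held a second copy on the other strand at -35. The X box-like letters began at -89 in H2-Eb1 and -92 in H2-DMb1, and were not found in the window of H2-Aa. Its line does hold aactttga before GATTGG, that is AAC and TGA with 1 base fewer between them than the pattern sets. The pattern therefore cannot tell whether H2-Aa has an X box. H2-Ob, a class II-like gene whose product restrains H2-DM and which was not called in any comparison, held them at -85 and GATTGG at -58. Other neighbours that were not called in HFoleic vs. Ref had the letters as well, H2-DMb2 with the X box-like letters at -121 and GATTGG at -91, H2-Oa with GATTGG at -44 and H2-Eb2 with GATTGG at -101. H2-DMa had GATTGG at -199 of 1 of its 2 starts, and the window of Cd80 held neither. Of 32,851 promoters of the same length 16.1% held GATTGG on either strand, 11.9% the X box-like letters and 1.81% both. In 41 of them the X box-like letters were followed by GATTGG on the strand of the gene within 50 bases, and H2-Eb1, H2-DMb1, H2-DMb2 and H2-Ob were 4 of these. A match describes letters only, and binding was not measured.

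The class II chains were higher in the HFoleic mice than in every Ref mouse, and the HFepa mice were spread over the range of both groups. Levels are log2 of the median intensity after quantile normalization, read from the brightest probe of each gene, and probe positions are those of the files on mm9. H2-Aa, the alpha chain of the I-A molecule (probe at chr17:34421285-34421344, minus strand), had levels from 11.35 to 11.85 (median 11.72) in Ref, from 12.41 to 13.42 (median 13.11) in HFoleic and from 11.47 to 13.21 (median 12.14) in HFepa. H2-Ab1, its beta chain (chr17:34406296-34406355, plus strand), had levels from 14.81 to 14.99 (median 14.89) in Ref, from 15.42 to 16.30 (median 16.22) in HFoleic and from 14.70 to 16.40 (median 15.27) in HFepa. Ref and HFoleic did not overlap for either chain, and the lowest HFoleic value was in both cases that of HFoleic 1. H2-Eb1, the beta chain of the I-E molecule (chr17:34453075-34453134, plus strand), had levels from 15.08 to 15.31 (median 15.26) in Ref, from 15.63 to 16.45 (median 16.34) in HFoleic and from 15.23 to 16.44 (median 15.61) in HFepa. Here too every HFoleic mouse was above every Ref mouse. C57BL/6 mice lack a working alpha chain of I-E, and the probe for the H2-Ea pseudogene was well above background on 0 of 20 arrays. In HFoleic vs. Ref the log2 fold change was 1.36 (SE 0.25, adjusted p = 0.000784) for H2-Aa, 1.19 (SE 0.22, adjusted p = 0.000808) for H2-Ab1 and 0.99 (SE 0.18, adjusted p = 0.000692) for H2-Eb1. The other three probes of H2-Ab1, of which 1 overlaps the brightest in position, had log2 fold changes of 1.20, 1.20 and 1.47 and were called as well.

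Genes for loading of the chains moved in the same direction. H2-DMa, the alpha chain of H2-DM (chr17:34274300-34274863, plus strand, on mm9), had levels from 8.72 to 9.33 (median 9.02) in Ref, from 9.78 to 10.73 (median 10.63) in HFoleic and from 8.70 to 10.66 (median 9.46) in HFepa. H2-DMb1, its beta chain (chr17:34297109-34297168, plus strand), had levels from 11.68 to 12.34 (median 12.01) in Ref, from 12.58 to 14.33 (median 13.78) in HFoleic and from 11.80 to 14.06 (median 12.47) in HFepa. Ref and HFoleic were again apart for both genes. Cd74, the invariant chain gene (chr18:60972075-60972132, plus strand), had levels from 14.08 to 14.37 (median 14.18) in Ref, from 14.41 to 15.47 (median 15.19) in HFoleic and from 13.89 to 15.45 (median 14.50) in HFepa. The gap between Ref and HFoleic was narrow, since HFoleic 1 lay just above Ref 3. The log2 fold changes in HFoleic vs. Ref were 1.45 (SE 0.28, adjusted p = 0.0011) for H2-DMa, 1.66 (SE 0.34, adjusted p = 0.00154) for H2-DMb1, which had the largest of the 10 members, and 0.90 (SE 0.22, adjusted p = 0.00526) for Cd74. H2-DMb2 is a near-identical copy of H2-DMb1, and its probe differed by 0.16 on the log2 scale (adjusted p = 0.257). That probe was dim, with mean levels of 5.50 in Ref, 5.66 in HFoleic and 5.60 in HFepa. Hybridization between the copies was not tested.

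Ciita, the coactivator without which class II genes are not transcribed (chr16:10526458-10526517, plus strand, on mm9), had levels from 9.51 to 10.05 (median 9.89) in Ref, from 10.55 to 11.59 (median 11.17) in HFoleic and from 9.68 to 11.58 (median 10.30) in HFepa. Every HFoleic mouse was above every Ref mouse, and on this probe 7 of 8 HFepa mice were too, where other Ciita probes had 5 and 4 of 8. Its log2 fold change in HFoleic vs. Ref was 1.31 (SE 0.25, adjusted p = 0.00106), and its other two tested probes had 0.90 and 0.89, both called.

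**Figure D1:**
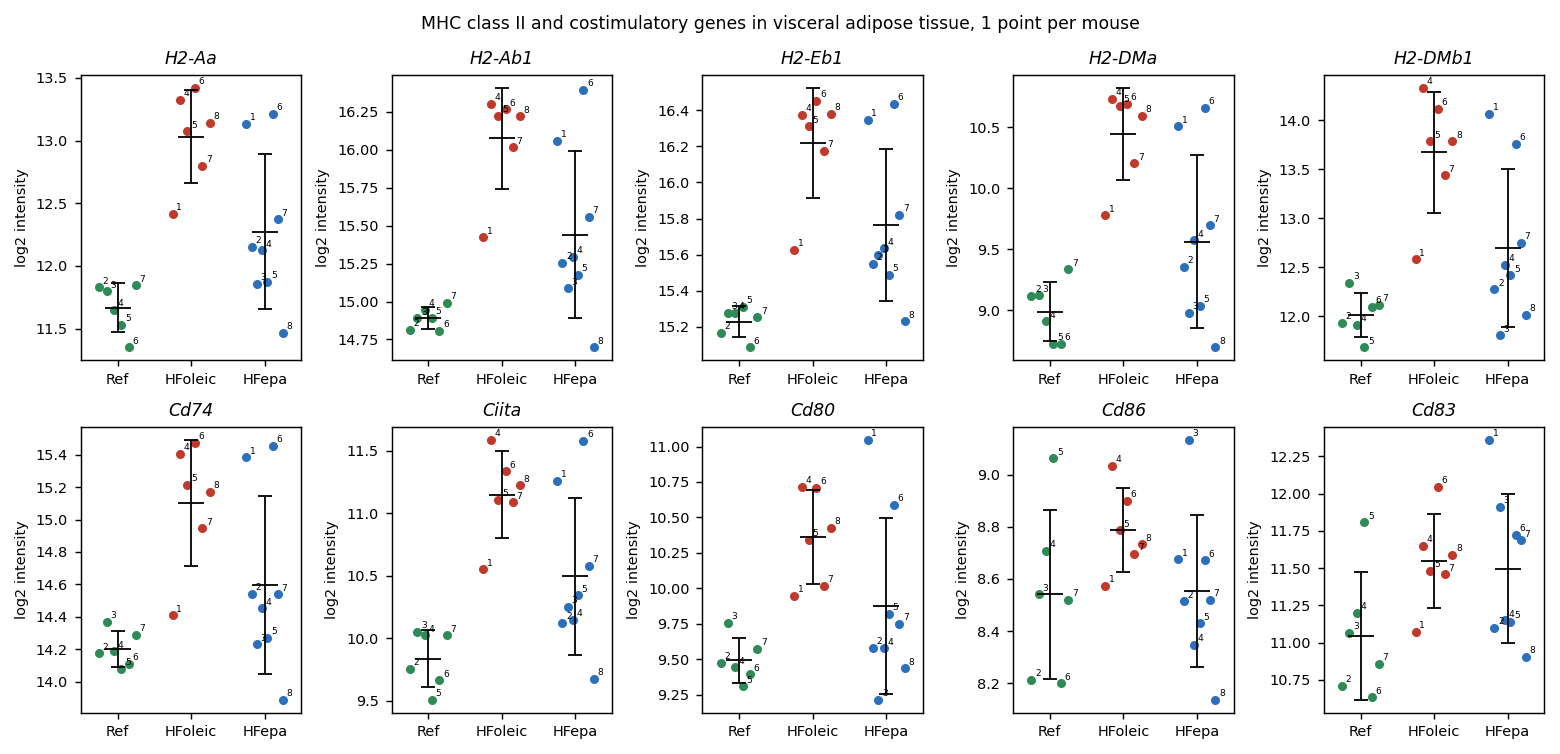
Log2 intensity (y axis) of the brightest probe of each gene in each mouse, by group (x axis), 6 Ref, 6 HFoleic and 8 HFepa mice. Points are mice with their replicate numbers, and black bars are the mean ± SD. Ref and HFoleic do not overlap for the first 8 genes, HFepa 1 and 6 lie at HFoleic levels, and the groups overlap for Cd86 and Cd83.

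Of the genes of costimulation and maturation, Cd80 was higher in HFoleic than in Ref, while Cd86 and Cd83 did not pass the test in any comparison. Cd80, a ligand of Cd28 and Ctla4 on T cells (chr16:38486772-38486831, plus strand, on mm9), had levels from 9.31 to 9.75 (median 9.46) in Ref, from 9.95 to 10.72 (median 10.39) in HFoleic and from 9.21 to 11.05 (median 9.66) in HFepa. Its Ref and HFoleic mice did not overlap, and HFepa 1 was the highest of all mice. The log2 fold change was 0.87 (SE 0.24, adjusted p = 0.00979). Of its 3 dimmer probes, 2 were called with log2 fold changes of 0.40 and 0.32, and the dimmest, at 0.26, was not (adjusted p = 0.0782). Cd86, the second ligand of the same receptors (chr16:36603961-36604020, minus strand), had levels from 8.20 to 9.06 (median 8.53) in Ref, from 8.57 to 9.04 (median 8.76) in HFoleic and from 8.14 to 9.13 (median 8.52) in HFepa. Its groups overlapped almost entirely, and its log2 fold change in HFoleic vs. Ref was 0.25 (SE 0.15, adjusted p = 0.226, 95% confidence interval -0.07 to 0.56). Its 2 dimmer probes of the same transcript had 0.27 and 0.30 in HFoleic vs. Ref, and -0.27 and -0.30 in HFepa vs. HFoleic. None of these was called, and the values in HFepa vs. HFoleic had unadjusted limma p of 0.0456 and 0.0291. A probe of another Cd86 transcript had negative values in all comparisons, -0.26 in HFoleic vs. Ref, -0.30 in HFepa vs. Ref and -0.04 between HFepa and HFoleic, none called. Cd83, which keeps class II and Cd86 on the cell surface and marks mature dendritic cells (chr13:43898276-43898335, plus strand), had levels from 10.63 to 11.81 (median 10.96) in Ref, from 11.07 to 12.05 (median 11.53) in HFoleic and from 10.91 to 12.36 (median 11.42) in HFepa. Ref 5 was higher than 5 of 6 HFoleic mice for Cd83 and had the highest Ref value of Cd86 as well. The log2 fold change of Cd83 was 0.50 (SE 0.23, adjusted p = 0.11), and without Ref 5 it was 0.66 (adjusted p = 0.0347), which passed the threshold.

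Across HFoleic vs. Ref, 8 of 10 members were called higher and 0 lower, beside 15.2% of all 25,618 gene names called higher and 31.8% called in either direction. The same 8 did not overlap between the groups, with every HFoleic mouse above every Ref mouse, which held for 6.92% of all gene names. The median log2 fold change of the 10 members was 1.09, and that of all gene names was -0.04. In 20 fits with 1 array left out, between 8 and 9 members were called, beside 9833 to 13,175 of 39,390 probes called in either direction. Without the 4 arrays that held testis RNA 8 members were called, beside 6728 of 39,390 probes. The arrays lay on 3 slides that each held all groups, with 1 HFoleic mouse, HFoleic 4, on slide 2. All 10 differences were positive within every slide, and with the slide as a block 8 members were called (adjusted p of the called members from 0.000783 to 0.0112), beside 32.1% of all probes called in either direction.

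**Figure D2:**
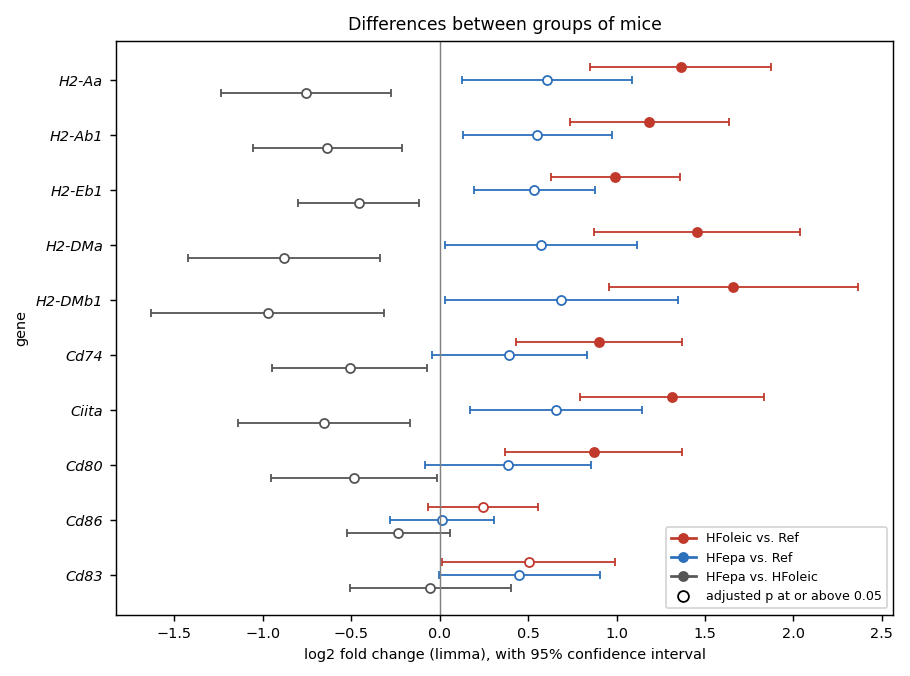
Log2 fold change from limma (x axis) of the 10 genes (y axis) in the 3 comparisons, with 95% confidence intervals as bars; filled points have an adjusted p under 0.05. The filled points are those of 8 genes in HFoleic vs. Ref, and HFepa lies between Ref and HFoleic for each gene.

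In the HFepa mice the mean of each of the 10 members lay above that of Ref and below that of HFoleic, and neither difference passed the test after adjustment. HFepa vs. Ref had 0 of 10 members called by limma (all gene names, 2.46%), with adjusted p from 0.0807 (H2-Eb1) to 0.971 (Cd86), and 6 members were higher at an unadjusted p under 0.05 (all gene names, 10%). These were H2-Aa, H2-Ab1, H2-Eb1, H2-DMa, H2-DMb1 and Ciita, with log2 fold changes from 0.54 (SE 0.16) for H2-Eb1 to 0.69 (SE 0.32) for H2-DMb1. For H2-Aa the value was 0.61 (95% confidence interval 0.13 to 1.09), for Ciita 0.66 (0.17 to 1.15) and for Cd74 0.39 (-0.05 to 0.83). HFepa vs. HFoleic likewise had 0 of 10 called (all gene names, 0%), and 8 members were lower at an unadjusted p under 0.05 (all gene names, 10%), the others being Cd86 and Cd83. Their log2 fold changes ran from -0.97 (SE 0.32) for H2-DMb1 to -0.46 (SE 0.16) for H2-Eb1, with -0.76 (95% confidence interval -1.24 to -0.27) for H2-Aa and -0.51 (-0.95 to -0.07) for Cd74. Cd83 had -0.05 (-0.51 to 0.40). The count of 8 rests on the brightest probes. In HFepa vs. HFoleic the dimmer Cd80 probes had unadjusted limma p from 0.0718 to 0.13, and 1 dimmer Ciita probe had 0.0782. For Cd86, 2 dimmer probes had 0.0456 and 0.0291. The comparisons share their arrays, so these values are not independent of each other or of HFoleic vs. Ref. The median over the members was 0.54 in HFepa vs. Ref and -0.57 in HFepa vs. HFoleic, beside -0.02 and 0.01 over all gene names.

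The HFepa mice did not form 1 level. HFepa 1 and HFepa 6 were at or above the lowest HFoleic mouse for all 10 members, and over the 7 genes of the chains, H2-DM, Cd74 and Ciita their median distance above the Ref mean was 1.42 and 1.55, where 5 of the HFoleic mice had 1.13 to 1.66. HFepa 8 was above all Ref mice for 0 of these 7 genes, with a median of -0.19. The others, HFepa 2, 3, 4, 5 and 7, had medians of 0.34, 0.19, 0.41, 0.26 and 0.70, and were above all Ref mice for 4 to 7 of the 7 genes. In HFoleic the mouse that stood apart was HFoleic 1, with a median of 0.57 and the lowest HFoleic level of each of the 7 genes. The calls between the high-fat groups depended on single mice. Without HFepa 1, 7 members were called lower in HFepa than in HFoleic (log2 fold changes from -1.17 to -0.54, adjusted p from 0.0276 to 0.0455), beside 7.28% of all probes called. Without HFoleic 1, 5 members were called (-1.19 to -0.58, adjusted p from 0.0414 to 0.0462), beside 4.22% of all probes. Without HFepa 8, H2-Eb1 was called in HFepa vs. Ref (0.61, adjusted p = 0.041), beside 3.38% of all probes. Within slides, 10, 8 and 10 members were higher in HFepa than in Ref on slides 1, 2 and 3, and 10, 10 and 8 were lower in HFepa than in HFoleic. On slide 2 the latter rests on 1 HFoleic mouse, HFoleic 4. With the slide as a block 0 members were called in either comparison. The slide block raised the probes called in HFepa vs. HFoleic from 1 to 1297 of 39,390, and lowered those in HFepa vs. Ref from 892 to 696. Without the 4 arrays that held testis RNA 0 members were called in either comparison, and so were 0 of all 39,390 probes. That setting therefore does not tell the members from other genes in these 2 comparisons. Limma array weights, which count mice that stand apart less, called 1 member in HFepa vs. Ref (3.69% of all probes) and 7 in HFepa vs. HFoleic (10.9% of all probes).

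**Figure D3:**
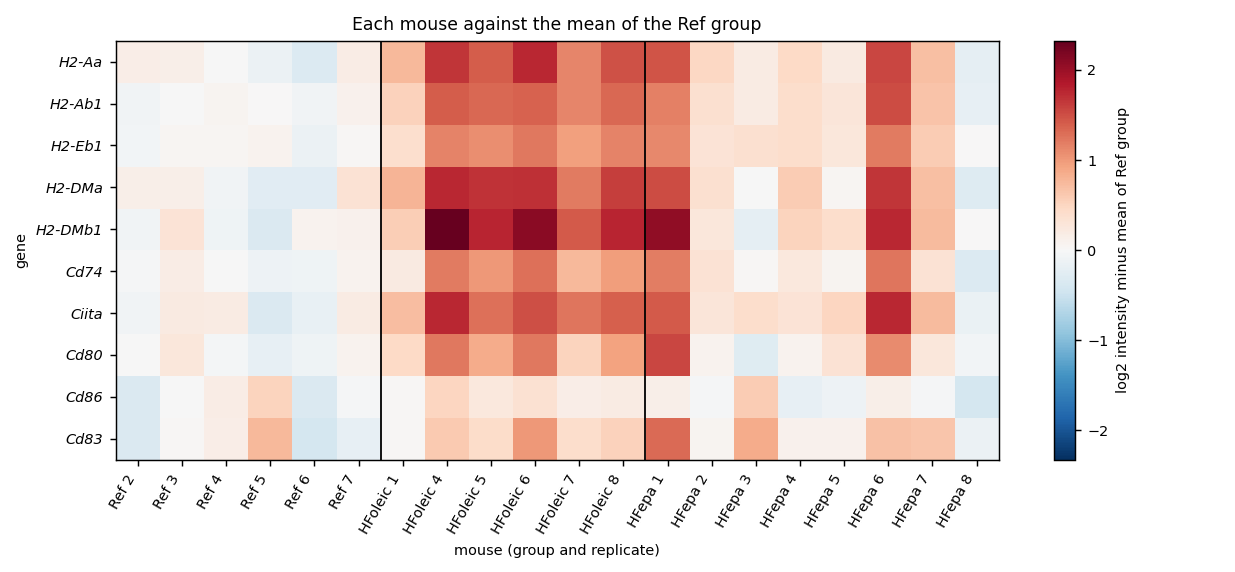
Log2 intensity of each gene (rows) in each mouse (columns) minus the mean of the 6 Ref mice, in colour from blue (lower) to red (higher), with black lines between the groups. HFepa 1 and 6 carry the red of the HFoleic mice over the upper 8 genes, HFoleic 1 is the palest of its group there, and Cd86 shows little colour in any group.

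The mice that were high for 1 class II gene were high for the others. Over the 20 arrays, after each group mean was subtracted, Pearson's r was between 0.90 and 0.98 (median 0.94) for the 21 pairs among the chains, H2-DM, Cd74 and Ciita. Cd80 had r from 0.84 to 0.95 with these 7 genes, Cd83 from 0.50 to 0.72 and Cd86 from 0.14 to 0.44. Outside the set, the genes most like Cd74 were Irf8, Ifi30, Fcer1g, Anpep and Clec4a1 (r from 0.95 to 0.96), and those most like Ciita were Clec4a1, Rassf4, Gm2848, Snx20 and Csf1r (0.93 to 0.95). Cd80 was most like Cyth4, Cotl1, Rab7b, Tbxas1 and Ubash3b (0.97), and Cd83 most like the chemokine gene Ccl4, P2rx7, Tmem55b, Ppp1r14b and Mitf (0.91 to 0.92). All points share the arrays and their normalization. Without the 2 arrays farthest from the median, r was 0.91 to 0.94 for Cd74, 0.88 to 0.91 for Ciita, 0.93 to 0.94 for Cd80 and 0.84 to 0.90 for Cd83 over 18 arrays. These were HFepa 1 and 6, and for Cd83 HFepa 1 and Ref 5.

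Of the wider pathway, 52 genes of 7 lists were tested, and in HFoleic vs. Ref 21 were called higher and 4 lower, beside 15.2% and 16.7% of all gene names. In HFepa vs. Ref 0 of them were called by limma, with 12 higher and 1 lower at an unadjusted p under 0.05, beside 10% and 11.5% of all gene names. HFepa vs. HFoleic likewise gave 0 calls, with 3 higher and 16 lower at that unadjusted level, beside 10.8% and 10% of all gene names. In the list of antigen processing and peptide loading 6 of 10 were called higher and 0 lower in HFoleic vs. Ref, the comparison of the values that follow. Ctss, the protease that trims the invariant chain in antigen-presenting cells, rose by 3.03 on the log2 scale (SE 0.54, adjusted p = 0.000726), from levels of 12.41 to 13.46 in Ref to 14.78 to 16.62 in HFoleic, and HFepa mice ran from 13.03 to 16.81. Ifi30, the thiol reductase of endosomes, rose by 1.94 (SE 0.44), and the proteases Lgmn by 1.24, Ctsl by 0.98, Ctsb by 0.70 and Ctsd by 0.69. H2-Ob (0.27), H2-DMb2 (0.16), H2-Oa (0.13) and the chaperone Canx (0.09) were not called. H2-Oa and H2-Ob make H2-DO, the inhibitor of H2-DM that B cells carry. H2-Eb2, another beta chain gene, had -0.16 (adjusted p = 0.469).

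Among 13 genes for transcription of class II genes 4 were higher and 2 lower in HFoleic vs. Ref, beside 15.2% and 16.7% of all gene names. Irf8 and Spi1, transcription factors of myeloid cells and B cells, rose by 1.26 (SE 0.25, adjusted p = 0.00136) and 1.01 (SE 0.24, adjusted p = 0.00344). The Spi1 probe was dim, with mean levels of 5.30 in Ref and 6.31 in HFoleic. Ifngr2, a chain of the interferon gamma receptor, rose by 0.60, while the other receptor chain, Ifngr1, fell by 0.32. The factors that bind the X and Y boxes gave smaller values. Rfx5, Rfxap and Rfxank, which bind the X box, had 0.00, 0.02 and -0.16, none called, and of the NF-Y subunits that bind the Y box Nfyb fell by 0.53 (adjusted p = 0.0015) while Nfya (0.22) and Nfyc (0.01) were not called. Of 7 other costimulators and coinhibitory ligands 4 were higher, Cd48 (1.41), Cd276 (1.03), Cd40 (0.47) and Pdcd1lg2 (0.28), and Icosl, Cd274 and Tnfsf9 were not called. Of 6 receptors on T cells that read these signals, Cd28, Ctla4, Icos, Cd4, Cd3e and Lag3, 0 were called by limma and 1 was higher at an unadjusted p under 0.05 (Lag3, 0.34, adjusted p = 0.0562). The Ctla4 probe was dim, with group means of 5.59 to 5.68.

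In HFoleic vs. Ref 15.2% of all gene names were called higher and 16.7% lower. There MHC class I presentation, which shows peptides from inside the cell, had 6 of 10 genes higher and 0 lower. The median log2 fold change of that list was 0.32. The 6 were H2-K1 (0.47), the immunoproteasome genes Psmb9 (0.47) and Psmb8 (0.43), B2m (0.35), Tapbp (0.33) and Nlrc5 (0.32), the coactivator of class I genes. A dimmer B2m probe was called in the other direction (-0.33). Of 5 tested genes of class II turnover and trafficking, Cd9 was higher (0.87) and March8 (-0.20) and Sppl2a (-0.28) lower in the same comparison. These counts are to be read beside the same shares of all gene names. Dimmer March8 probes had -0.19 (adjusted p = 0.0831) and -0.02 and were not called. Other, dimmer Sppl2a probes were called higher (0.26 and 0.32), so the direction of that gene depends on the probe.

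**Figure D4:**
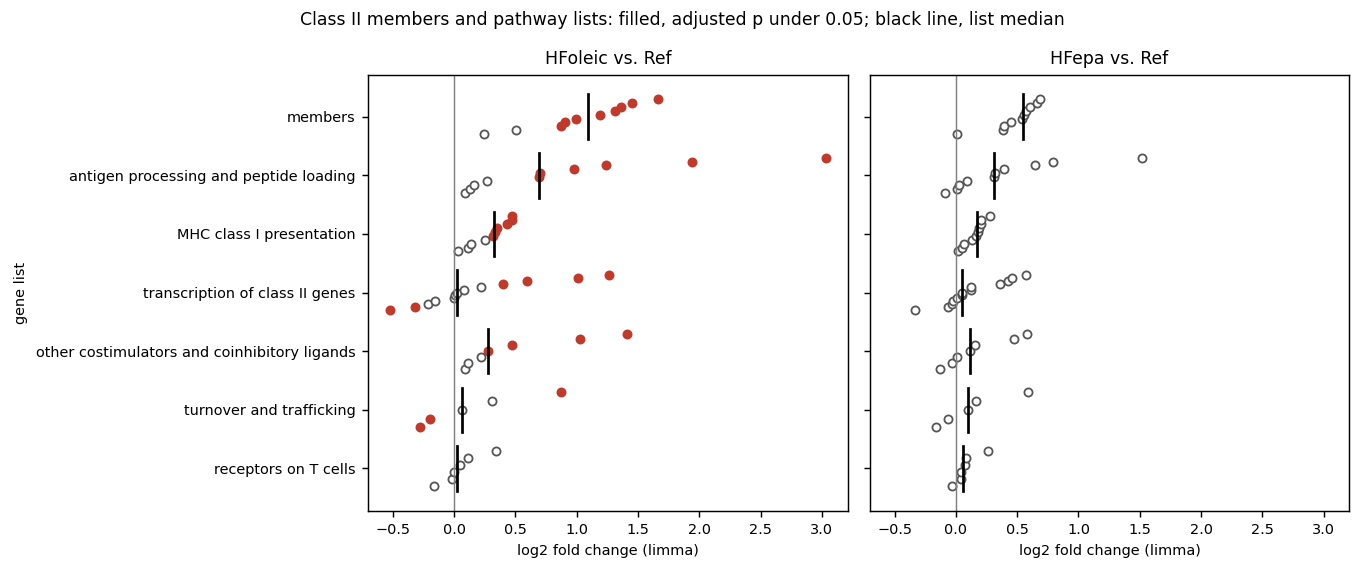
Log2 fold change from limma (x axis) of each gene of the 10 members and 6 pathway lists (y axis), in HFoleic vs. Ref (left) and HFepa vs. Ref (right). Filled points have an adjusted p under 0.05, and black lines are list medians, 1.09 for the members and 0.32 for MHC class I in HFoleic vs. Ref.

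Markers of cells that carry class II molecules moved with these genes to different degrees. In HFoleic vs. Ref 15.2% of all gene names were called higher and 16.7% lower. There 8 of 10 macrophage markers were called higher, among them Cd68 (2.41), Adgre1 (2.27) and Csf1r (1.02), and Itgam and Mertk were not called. The mean level of that list was 10.74 to 11.26 in Ref, 11.63 to 12.77 in HFoleic and 10.73 to 12.67 in HFepa, so Ref and HFoleic did not overlap. Of 7 markers of lipid-associated macrophages 6 were higher, with Gpnmb at 4.89 and Trem2 at 4.22, and the list ran from 11.13 to 11.83 in Ref, from 13.00 to 14.31 in HFoleic and from 11.55 to 14.53 in HFepa. HFepa 1 and HFepa 6 had the highest HFepa values of both lists, and HFepa 8 and HFoleic 1 the lowest macrophage values of their groups. Of 8 dendritic cell markers 5 were higher, Itgax (3.16), Flt3 (1.00), Ccr7 (0.84), Clec9a (0.78) and Fscn1 (0.55), and Zbtb46, a factor of classical dendritic cells, fell by 0.65. Itgax is also made by macrophages of obese fat. The dendritic cell list ran from 9.16 to 9.74 in Ref, from 10.09 to 10.38 in HFoleic and from 9.64 to 10.55 in HFepa.

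B cells, which also carry class II, gave 0 of 6 markers called by limma and 0 higher and 1 lower at an unadjusted p under 0.05, with a median log2 fold change of -0.12 and median list means of 7.37 in Ref, 7.34 in HFoleic and 7.32 in HFepa (highest 8.27, 7.41 and 7.72). Of 6 T cell markers Cd2 was called higher (0.52), and the list means overlapped (7.98 to 8.69 in Ref, 8.11 to 8.71 in HFoleic and 8.10 to 8.67 in HFepa). Of 5 markers of lymph node stroma 0 were called (1 lower at an unadjusted p under 0.05) and of the 3 testis markers 0 at either level. The stroma list had means of 7.78 to 9.37 in Ref, 7.72 to 8.50 in HFoleic and 7.05 to 9.08 in HFepa. Of 8 adipocyte markers 4 were lower in HFoleic than in Ref, Lipe, Retn, Cfd and Pnpla2, and Lep was higher. Of all gene names 16.7% were called lower and 15.2% higher in that comparison. In HFepa vs. Ref 1 of the 53 markers of all lists was called, Fabp5 (0.75, adjusted p = 0.0385), beside 2.46% of all gene names. At an unadjusted p under 0.05, 13 were higher and 3 lower, beside 10% and 11.5% of all gene names. Between HFepa and HFoleic 0 of 53 were called by limma. There 4 were higher and 16 lower in HFepa at that unadjusted level, beside 10.8% and 10% of all gene names. The part of cell numbers in the levels of the class II genes was not tested.

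**Figure D5:**
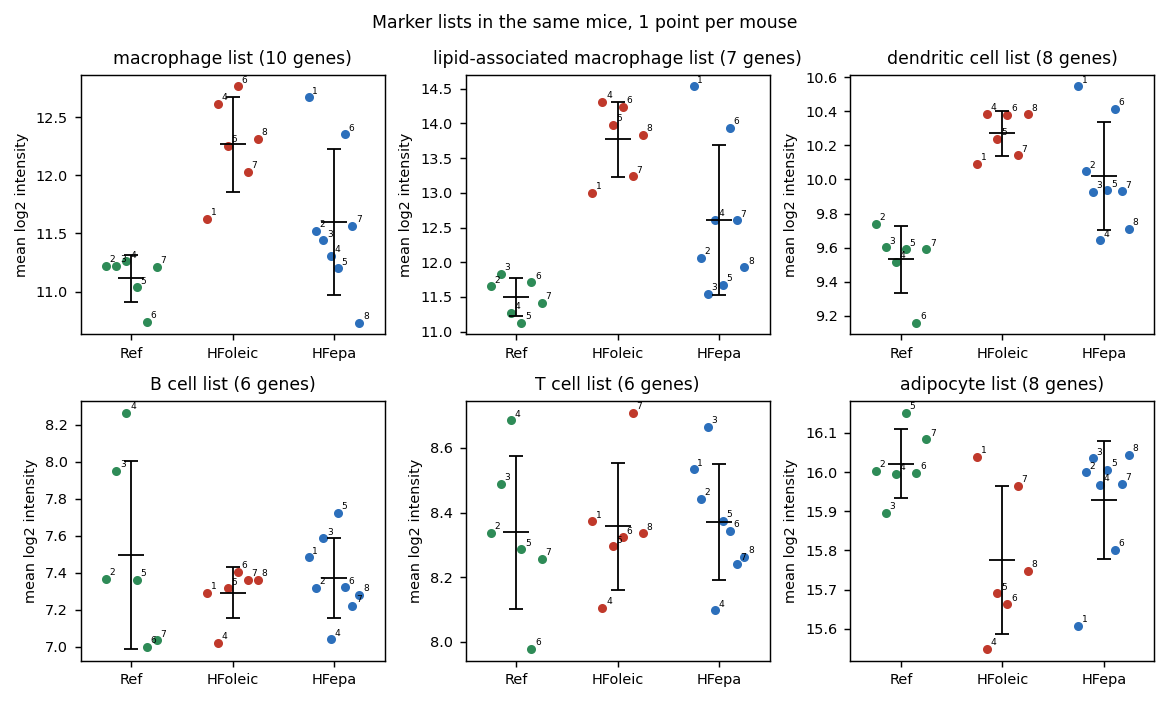
Mean log2 intensity (y axis) of the tested genes of 6 marker lists in each mouse, by group (x axis), 6 Ref, 6 HFoleic and 8 HFepa mice. Points are mice with their replicate numbers, and black bars are the mean ± SD. The macrophage lists and the dendritic cell list separate Ref from HFoleic, and the B cell and T cell lists do not.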

How the data were processed

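RNA of 20 mice was hybridized to Agilent SurePrint G3 mouse arrays of 1 colour. Per the file headers and labels, the authors extracted spot intensities with Agilent Feature Extraction 10.10.1.1, and the deposited median, mean and background intensities are linear and not normalized, while the processed intensity is background-subtracted. The authors also deposited a log2 table of 38,168 probes, filtered by a rule not given in the sources used here and quantile normalized. It served as an alternative.

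The analysis started from the scanner output and ran in R (version 4.3.3) with the packages limma (version 3.58.1) and data.table (version 1.17.8). Plots were made with matplotlib (version 3.10.9). Control spots (3671 of 62,976) were removed, and spots with a non-uniformity or population outlier mark were treated as missing. Log2 median intensities were quantile normalized between arrays and then averaged per probe. A probe was tested when well above background on at least 6 arrays, which left 39,390. The functions lmFit and eBayes of limma were applied to all 20 arrays with 1 mean per group and pairwise contrasts. Each p is two-sided and was adjusted by the Benjamini-Hochberg procedure across the 39,390 probes, and a call has an adjusted p under 0.05. The brightest tested probe stands for a gene, and percentages of gene names called use the same rule. The number of mice limits the precision.

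The members, the pathway and marker lists and the rule for named genes were chosen with earlier results of these data known. All members are named. Of the lists, the genes called and up to 3 uncalled genes may be named by that rule, and others printed (among them the Rfx, Nfy, H2-O and T cell receptor genes) were named in addition after their values were seen. Some genes of the lists, counted with the rest, are not reported here by name. The genes most like a member are the 5 with the highest Pearson's r outside the set. As alternatives the signal was taken from the processed column (75th percentile subtracted), from the mean signal after normexp (offset of 50), from median-centred arrays or from the authors' table. The filter on dim probes was removed or set to a whole group, marked spots were kept, and the model was run with array weights, with robust eBayes and a trend, with the slide or the replicate number as a block, and on the compared groups alone. Further alternatives were averaging a gene's tested probes, each array left out in turn and, chosen after seeing the data, 4 arrays with testis RNA left out. The model was tested on simulated independent values, with 200 of 39,390 probes raised by 1 on the log2 scale in each comparison. In HFoleic vs. Ref 181 were recovered beside 17 false calls. The numbers were 183 and 14 in HFepa vs. Ref, and 188 and 13 in HFepa vs. HFoleic. Gene names and mm9 positions are those of the files, which do not say here whether a probe lies in an exon or UTR. Promoters are from RefSeq on GRCm38.p6, another build, and no positions were compared between them.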

Additional observations from a re-analysis of the deposited data

Results flagged for a closer look

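In 30 tests, of each member in each group, 2 values stood far from the others of their group by Dixon's criterion, which flags about 1 group in 20 by chance. H2-Ab1 of HFoleic 1 was 15.42, where the next HFoleic mouse had 16.02, a gap of 0.674 of the range of the group. H2-Eb1 of HFoleic 1 was 15.63, where the next had 16.18, a gap of 0.666 of the range. Both were the lowest of HFoleic, and both were above all Ref mice. They come from 1 array, whose values of the class II genes are not independent of each other.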

How the results depend on the processing

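Over 34 alternatives and the 30 log2 fold changes of members, 985 of 1020 values kept their direction and their side of the threshold, 23 passed it newly, 1 lost it and 11 changed sign. Members called in HFoleic vs. Ref stayed at 8 except for 7 with the replicate block, 9 with array weights and 9 without Ref 5. Array weights gave 1 call in HFepa vs. Ref and 7 in HFepa vs. HFoleic. With 1 array left out, the counts ran from 8 to 9 in HFoleic vs. Ref, from 0 to 1 in HFepa vs. Ref and from 0 to 7 in HFepa vs. HFoleic. The cause was not tested.

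The labels do not say whether replicate numbers pair the mice, and the paper states that the HFoleic and HFepa groups were matched for body weight. Same-numbered arrays had r over 0.1 in 2 of 4, 1 of 6 and 2 of 6 pairs in HFoleic vs. Ref, HFepa vs. Ref and the comparison of HFepa with HFoleic, in that order. In the last, r ran from -0.58 to 0.56. Such values cannot tell whether mice were paired. The replicate block called 7, 0 and 0 members and 7873, 25 and 0 probes, in place of 12,147, 892 and 1, and the member it dropped was Cd80 (0.76, adjusted p = 0.0752).

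All sign changes were of values near 0. Cd86 in HFepa vs. Ref, 0.01, was -0.0067 with the processed signal, -0.0714 with the mean of all probes, -0.0432 without the 4 arrays that held testis RNA, and negative in 5 fits with 1 array left out, with -0.0529 without Ref 2, -0.0556 without Ref 6, -0.0047 without HFepa 1, -0.0702 without HFepa 3 and -0.0041 without HFepa 6 (range over all 20 fits -0.0702 to 0.1171). Cd83 in HFepa vs. HFoleic, -0.05, was 0.0476 without HFoleic 6, 0.0047 without HFepa 2 and 0.0327 without HFepa 8 (range -0.1751 to 0.0476).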
